A study of Mus musculus with 24 samples.

Results

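The 10 genes described here encode the enzymes and chaperones that modify and fold procollagen in the endoplasmic reticulum (ER). They were chosen by symbol from the 55335 genes counted in cultured primary osteoblasts (OBs), the cells that make bone matrix. The set holds both main prolyl 4-hydroxylase subunits (*P4ha1*, *P4ha2*), the lysyl hydroxylases (*Plod1*, *Plod2*, *Plod3*), the prolyl 3-hydroxylation complex (*P3h1*, *Crtap*, *Ppib*), the collagen chaperone HSP47 (*Serpinh1*) and the peptidyl-prolyl isomerase FKBP65 (*Fkbp10*). All 10 were found, each as a row of its own, and all 10 passed the filter on low counts in every comparison, with 1746 to 260667 counts per library.

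Cultures were grown from the parietal bones of pups in their first week, pooled by genotype, and kept in osteogenic medium with an ascorbate derivative. WT cultures were compared with cultures carrying the Het G610C genotype, heterozygous for a mutation of *Col1a2* that replaces 1 glycine of the α2(I) triple helix with cysteine, on the C57BL/6J background. The mutation is in the germline and not limited to OBs, so every cell of a Het culture that makes collagen I carries it. Polyadenylated RNA was sequenced from 4 cultures of each genotype at day 8, day 14 and day 21 of culture. The study describes separate experiments that differed in plating density and in oxygen during expansion, and the labels do not say which replicate came from which. Because wells share pooled pups, p-values measure the spread between wells and not between single animals. The main tests hold no term for the experiment, so that spread includes any difference between the experiments, which used different litters.

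Collagen chains are modified while they are still unfolded. Prolyl 4-hydroxylases make the 4-hydroxyproline that keeps the triple helix stable at body temperature, and lysyl hydroxylases make the hydroxylysines that carry sugars and form cross-links. The 3-hydroxylation complex modifies a few prolines and assists folding, HSP47 binds the folded helix and FKBP65 acts with the lysyl hydroxylase of the collagen telopeptides, which *Plod2* encodes. All these hydroxylases need iron, 2-oxoglutarate, ascorbate and molecular oxygen. Inherited loss of several of these genes causes brittle bone disease, as glycine substitutions in collagen I do.

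Libraries held 17140202 to 59734231 counts, with a median of 48340136. The 6 libraries numbered replicate 1 were shallower, with 17140202 to 25825762 counts, than the 18 numbered 2 to 4, with 28159342 to 59734231 counts. Levels are given as RQ, which is a gene's count relative to 4 housekeeping genes (*Actg1*, *Actb*, *Mrfap1*, *Sdha*; geometric mean of their counts) of that library. The defining OB markers were present in every library (8 of 8 genes, *Col1a1* at 9167 to 77922 CPM, the count scaled to the library total). Some were near the floor in their lowest library: *Bglap* (0.255 to 510 CPM), *Dmp1* (1.93 to 126) and *Ifitm5* (2.56 to 141). Macrophage markers (6 of 6 genes, none at 0 in any library) and chondrocyte markers (4 of 4, none at 0) were present too. Fibroblast markers summed to 1.46 to 17.1 CPM and endothelial markers to 0.214 to 1.23, with *Emcn* at 0 in 16 libraries. Smooth muscle markers summed to 1345 to 2853 and adipocyte markers to 0.849 to 9.80, with *Adipoq* at 0 in 7 libraries. In such mixed cultures, fewer OBs and less RNA per OB cannot be told apart.

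**Figure D1:**
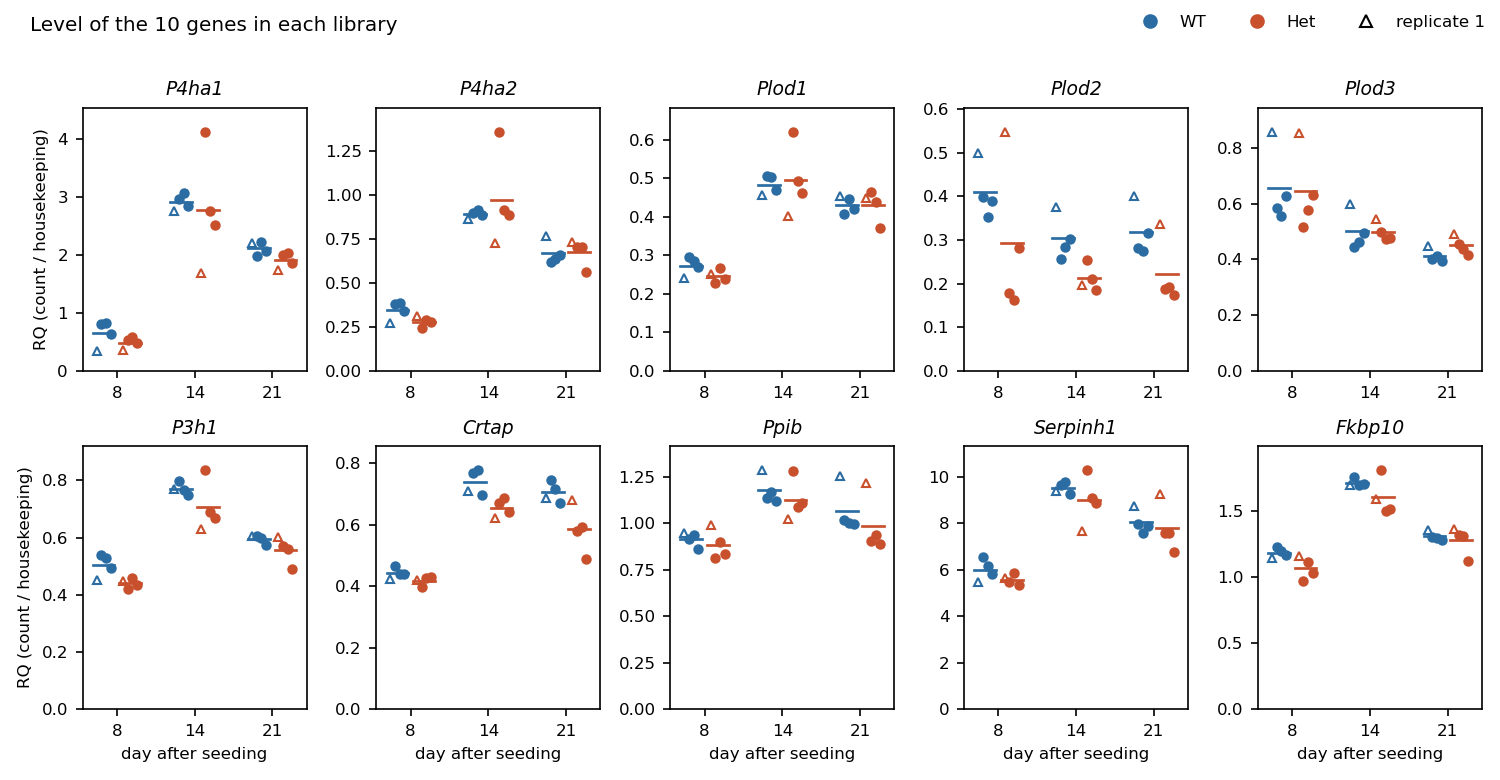
Level of each of the 10 genes in each of the 24 libraries. The vertical axis is RQ (count over the geometric mean of 4 housekeeping genes, linear from 0) and the horizontal axis is the day after seeding; points are libraries, triangles are replicate 1 and horizontal lines are group means. *P4ha1* and *P4ha2* rise after day 8 in both genotypes, 7 of 8 Het libraries lie below all WT libraries for *Plod2* at days 14 and 21, and the Het day 14 library of replicate 2 stands above the other Het day 14 libraries for *P4ha1* (4.12 against 1.68 to 2.75).

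The 10 genes were not expressed at like levels. Per kb of exon, *Serpinh1* was the highest in all 6 groups, with 2.46 ± 0.185 RQ per kb (SD, n = 4) in WT at day 8 and 3.90 ± 0.0972 at day 14. Next in WT at day 8 came *Fkbp10* (0.403 ± 0.0125), *Ppib* (0.277 ± 0.0118) and *Crtap* (0.250 ± 0.0102), the last pair overlapping in their library values. *P4ha1*, *Plod3* and *P3h1* followed, at 0.159, 0.145 and 0.131, and each overlapped the next in that order. *Plod2* (0.0761), *P4ha2* (0.0552) and *Plod1* (0.0403) were lowest in WT at day 8, each separate from the next. At the later days the order differed most for *P4ha1*, which went from rank 5 to rank 2, at 0.706 ± 0.0320 RQ per kb in WT at day 14 and 0.516 ± 0.0279 at day 21, above every library value of *Fkbp10*. *Plod2* took the last rank at days 14 and 21, at 0.0565 ± 0.00954 and 0.0590 ± 0.0108, where it overlapped *Plod1*. Het cultures gave *P4ha1* the second and *Plod2* the last rank as well (0.672 ± 0.246 and 0.0394 ± 0.00559 at day 14), but there *P4ha1* overlapped *Fkbp10*.

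The first comparison asked how these genes change as the cultures mature. From day 8 to days 14 and 21, all 10 passed the test, 8 higher and 2 lower, against 58.5% of the 20287 genes tested (40.9% higher and 17.6% lower). *P4ha1* and *P4ha2* rose the most among the 10, and *Plod2* and *Plod3* fell. The median log2 difference was 0.52 over the 10 genes and 0.15 over all genes tested. That background depends on the scale: with TMM, which centres on the bulk of genes, all genes had a median of 0.01 and 6110 genes were called higher and 6061 lower, in place of 8304 and 3573.

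*P4ha1*, the catalytic subunit of the main prolyl 4-hydroxylase, had RQ values of 0.345, 0.803, 0.818 and 0.644 in WT replicates 1 to 4 at day 8, and 0.368, 0.527, 0.579 and 0.475 in Het. By day 14 WT cultures reached 2.76, 2.96, 3.06 and 2.83, while Het cultures reached 1.68, 4.12, 2.75 and 2.51. WT cultures of day 21 had 2.20, 1.99, 2.23 and 2.07, and their Het counterparts 1.73, 2.00, 2.03 and 1.86. Every one of the 16 later libraries was above every one of the 8 libraries at day 8. The ratio of mean RQ was 4.25, and the log2 difference was 2.08 (SE 0.15, adjusted p = 1.65e-10, edgeR's quasi-likelihood test). Replicate 1 was lowest at day 8 in both genotypes, and its log2 difference between stages was 2.53, against 1.97 in replicates 2 to 4.

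*P4ha2*, the catalytic subunit of the second prolyl 4-hydroxylase, ranged from 0.246 to 0.384 RQ at day 8 (median 0.300) and from 0.563 to 1.36 at days 14 and 21 (median 0.751). Its stages did not overlap either. Of the 10 genes 5 were higher at days 14 and 21 without overlap, as were 11.1% of all genes tested. The ratio of means was 2.57 and the log2 difference 1.35 (SE 0.09, adjusted p = 8.50e-11, edgeR). The balance between both subunits therefore moved: the log2 ratio of *P4ha1* to *P4ha2* per kb was 1.42 ± 0.345 (SD, n = 8) at day 8 and 2.19 ± 0.168 (n = 16) later, a difference of 0.77 without overlap (permutation test, two-sided, adjusted p = 2.00e-05 over 4 balances, from the smallest p that 100000 permutations can give, 1e-05). Without the Het day 14 library of replicate 2, an alternative chosen after seeing the data, the log2 differences were 2.02 and 1.3.

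Both genes are known targets of the hypoxia-inducible factors, whose DNA element has the core ACGTG or GCGTG, so their promoters are shown to set these letters beside the shared rise. The windows run from 250 bases before to 50 bases after a RefSeq start, on the GRCm38.p6 build, plus strand, 5′ to 3′, with each match on either strand in capitals.
P4ha1 (chr10:59323046-59323345): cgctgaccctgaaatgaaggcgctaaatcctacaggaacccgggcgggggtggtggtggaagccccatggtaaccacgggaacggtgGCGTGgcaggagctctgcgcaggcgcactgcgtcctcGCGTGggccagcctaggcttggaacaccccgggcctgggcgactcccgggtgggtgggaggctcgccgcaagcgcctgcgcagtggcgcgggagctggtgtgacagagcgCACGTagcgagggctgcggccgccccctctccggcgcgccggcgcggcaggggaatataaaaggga
P4ha2 (chr11:54100674-54100973): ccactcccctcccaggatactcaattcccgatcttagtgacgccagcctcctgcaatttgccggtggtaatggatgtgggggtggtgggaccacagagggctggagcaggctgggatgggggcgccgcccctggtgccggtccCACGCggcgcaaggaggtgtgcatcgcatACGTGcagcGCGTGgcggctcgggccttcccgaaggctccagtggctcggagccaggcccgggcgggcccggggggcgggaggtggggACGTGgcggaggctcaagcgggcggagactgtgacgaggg
The *P4ha1* window holds 1 ACGTG and 2 GCGTG, and the *P4ha2* window 2 of each. Among 32851 RefSeq promoter windows of the same length, 19.6% hold ACGTG, 32.4% GCGTG and 43.8% at least 1 of them. Such letters are common, and of the 9 windows that matched 8 of the 10 genes all held at least 1 match. In the order ACGTG and GCGTG, *Ppib* held 2 and 5, *Plod3* 1 and 3, *Crtap* 0 and 3, *Plod1* 0 and 2 and *Serpinh1* 1 and 0. Of the 2 *P3h1* windows 1 held 0 and 2 and the other 2 and 0. The *P4ha2* window lies inside the gene as GENCODE draws it, whose outermost start is at 54100095.

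A list of 16 other oxygen-regulated genes, known to respond to the same factors, was higher at days 14 and 21 for 16 of 16 genes, with a median log2 difference of 1.52, and 16 of 16 were also called higher under the other 3 scales (TMM, the total count, DESeq2's size factors). *Ankrd37* (3.92, SE 0.38), the prolyl hydroxylase *Egln3* (3.12, SE 0.47) and the mitophagy receptor *Bnip3* (2.13, SE 0.21) rose the most in the list.  Their CPM values summed to 2339 to 3939 at day 8 and 4141 to 7729 later. The highest sum, 7729, was in the Het day 14 library of replicate 2, the library with the highest *P4ha1*. The next, 6219, was in the WT day 21 library of replicate 1, whose *P4ha1* (2.20 RQ) was below all WT libraries of day 14 (2.76 to 3.06). *Plod2*, another gene known to respond to hypoxia, was called lower at these days (adjusted p = 0.0427, edgeR), a call lost under 4 of 15 alternatives. The part of oxygen supply in the rise of *P4ha1* and *P4ha2* or in the fall of *Plod2* was not tested.

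*Plod1*, lysyl hydroxylase of the helical region, rose without overlap, from 0.228 to 0.295 RQ (median 0.259) to 0.371 to 0.620 (median 0.455), with a log2 difference of 0.82 (SE 0.07, adjusted p = 5.03e-10, edgeR). *Plod3*, which hydroxylates lysine and also adds glucose and galactose, fell by 0.49 on the log2 scale (SE 0.08, adjusted p = 3.38e-05, edgeR). At day 8 WT had 0.858, 0.586, 0.554 and 0.626 and Het 0.854, 0.518, 0.578 and 0.631, while the 16 later libraries had 0.395 to 0.598, and 14 of them lay below all at day 8. The fall of *Plod3* was larger in replicate 1 (log2 -0.73) than in replicates 2 to 4 (-0.38). *Plod2*, the telopeptide lysyl hydroxylase, fell by 0.41 (SE 0.17, adjusted p = 0.0427, edgeR), with wide overlap: 0.162 to 0.548 at day 8 and 0.174 to 0.401 later. That call was lost without replicate 2 or 4, where the adjusted p was 0.0614 and 0.177, without the filter on low counts (0.0533) and in Het cultures alone (0.276). The log2 difference of *Plod2* was -0.72 in replicate 1 and -0.22 in replicates 2 to 4.

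Chondrocyte markers fell between the same stages, with 3 of 4 genes called lower. Their CPM values summed to 10623 to 17896 in WT and 3323 to 17244 in Het at day 8, and to 1497 to 8738 in WT and 555 to 10884 in Het later. In each genotype and day replicate 1 had the highest chondrocyte sum of the 4 libraries, and its *Plod3* was the highest of the 4 as well. Its *Plod2* was also the highest of the 4, except in Het at day 14. The part of chondrocytes in the fall of *Plod2* and *Plod3* was not tested. Macrophage markers rose, with 6 of 6 genes called higher, from 116 to 524 CPM at day 8 to 517 to 7503 later. OB markers rose as well, with 8 of 8 genes called higher.

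The chaperones and the 3-hydroxylation complex rose less. *Crtap*, the helper subunit of the complex, rose from 0.397 to 0.466 RQ to 0.488 to 0.778, and *Serpinh1* from 5.36 to 6.54 to 6.79 to 10.3, both without overlap. Their log2 differences were 0.64 (SE 0.05) and 0.56 (SE 0.06). *P3h1*, the 3-hydroxylase itself, rose by 0.47 (SE 0.05), and 15 of 16 later libraries were above all at day 8. *Fkbp10* rose by 0.38 (SE 0.05), also with 15 of 16 above. *Ppib*, the cyclophilin of the complex, had the smallest rise of the 10, 0.27 (SE 0.06, adjusted p = 0.000912, edgeR), and only 13 of 16 later libraries were above all at day 8. With the total count as the scale, *Ppib* turned to -0.03 (adjusted p = 0.549) and *Fkbp10* kept 0.08 (adjusted p = 0.0659), while the median of all genes was then -0.14. In Het cultures alone *Ppib* had an adjusted p of 0.0787.

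**Figure D2:**
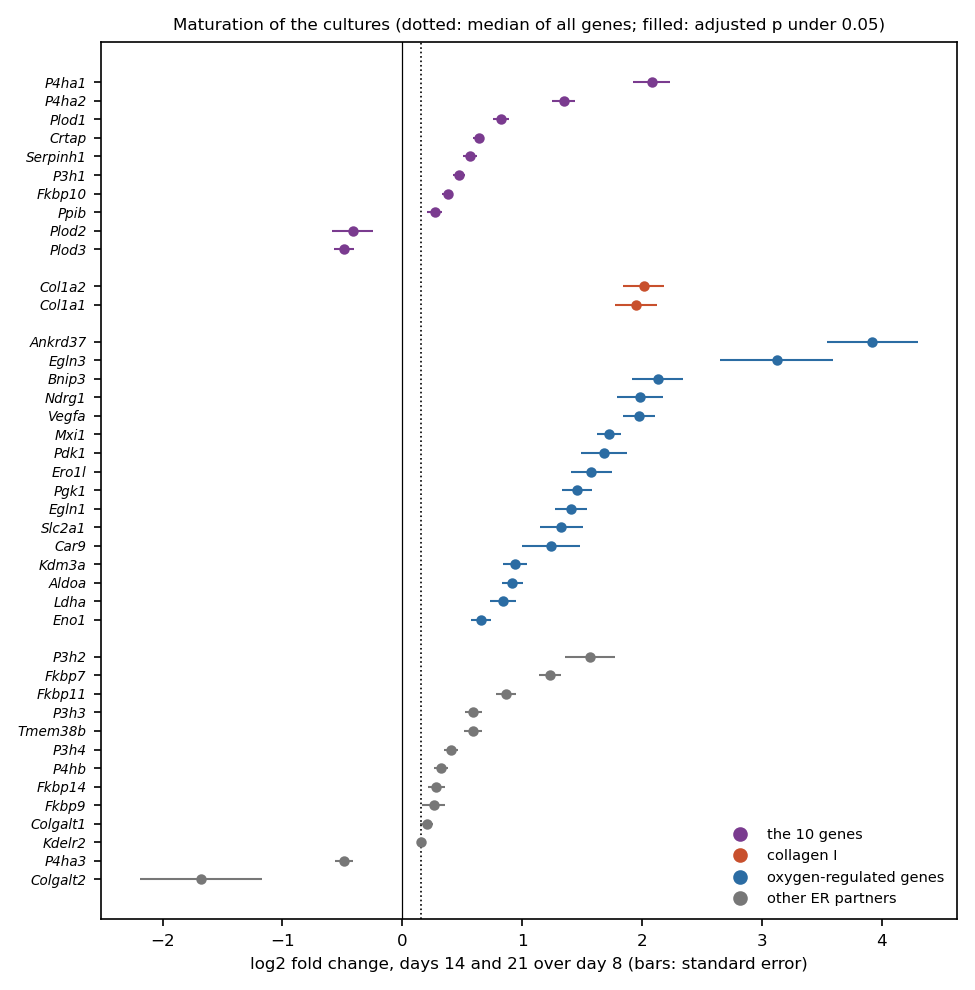
Log2 fold change from day 8 to days 14 and 21 for the 10 genes, collagen I, 16 oxygen-regulated genes and 13 other ER partners. Points are edgeR estimates with bars of 1 standard error, filled where the adjusted p is under 0.05, and the dotted line is the median of all genes tested (0.15); *P4ha1* (2.08) lies beside *Col1a1* (1.95) and *Col1a2* (2.02), and the other 9 genes lie below them.

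Of the substrate, *Col1a1* rose by 1.95 (SE 0.17) and *Col1a2* by 2.02 (SE 0.17) on the log2 scale. Of the 9 fibrillar collagen genes 7 were called higher and 1 lower, with *Col11a2* (1.16, SE 0.19) next after collagen I and the cartilage collagen *Col2a1* (-1.82, SE 0.48) as the fall. Expressed as a percent of the collagen I message (mean of *Col1a1* and *Col1a2*, per kb), *P4ha1* was at 4.02 ± 0.336 (SD, n = 4) in WT at day 8 and 3.90 ± 1.39 (n = 8) later, and at 3.67 ± 0.555 and 4.59 ± 1.61 in Het. *Serpinh1* went from 70.2 ± 33.6 percent to 23.0 ± 7.36 in WT and from 74.4 ± 27.9 to 27.9 ± 5.49 in Het. *Plod3* went from 4.62 ± 3.72 percent to 0.661 ± 0.300 in WT and *Plod2* from 2.36 ± 1.74 to 0.375 ± 0.158. All genes but *P4ha1* thus had a lower mean per collagen I message at the later days in both genotypes. The log2 ratio of *Serpinh1* to collagen I differed by -1.47 between the stages without overlap (permutation test, two-sided, adjusted p = 2.00e-05). The ratio of *P3h1* to *Crtap* differed by -0.17 (adjusted p = 0.0174, same test), and *Plod2* over the sum of *Plod1* and *Plod3* by -0.26 (adjusted p = 0.168).

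Other genes of procollagen modification in the ER were tested as a list of 13. Of these, 11 were called higher at days 14 and 21 and 2 lower, with a median of 0.33. The rises were led by the 3-hydroxylase *P3h2* (1.57, SE 0.21) and the isomerases *Fkbp7* (1.23, SE 0.09) and *Fkbp11* (0.87, SE 0.08), and the falls were *Colgalt2* (-1.68, SE 0.51), a collagen galactosyltransferase, and *P4ha3* (-0.49, SE 0.08), the third 4-hydroxylase subunit. *P4hb*, protein disulfide isomerase and the partner subunit of the 4-hydroxylases, rose by 0.33 (SE 0.06), far less than *P4ha1*. On the total count scale 5 were called higher and 4 lower, with a median of 0.02. The 4 genes of cofactor supply were called higher in 4 of 4 cases, among them the zinc transporter *Slc39a13* (0.82, SE 0.06) and the ascorbate transporters *Slc23a2* (0.63, SE 0.09) and *Slc23a1* (0.42, SE 0.16), and in 2 of 4 under TMM.

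At day 21, 6 of the 10 were lower than at day 14 and none was higher. Of these 6, 5 had been called higher at the later days than at day 8, and *Plod3* lower. In all, 19.2% of 19845 genes were called (13.3% higher, 5.93% lower). *P3h1* and *Fkbp10* were lower at day 21 without overlap, as were 0.695% of all genes tested. *P3h1* had 0.631 to 0.836 RQ (median 0.758) in 8 libraries at day 14 and 0.489 to 0.605 (median 0.586) at day 21, a fall by 0.36 on the log2 scale (SE 0.06, adjusted p = 0.000644, edgeR). *Fkbp10* had 1.5 to 1.81 and 1.12 to 1.36, and also fell by 0.36 (SE 0.05, adjusted p = 0.000348, edgeR). *P4ha1* fell by 0.49 (SE 0.12, adjusted p = 0.0105) and *P4ha2* by 0.46 (SE 0.10, adjusted p = 0.00465), both still well above day 8. *Serpinh1* (-0.22, adjusted p = 0.0345) and *Plod3* (-0.21, adjusted p = 0.0294) were called lower, but the call was lost under 7 of 15 alternatives for *Serpinh1* (adjusted p of 0.0013 to 0.542) and 6 of 15 for *Plod3* (0.00174 to 0.474). For *P4ha1* and *P4ha2* it was lost without replicate 3, without replicate 4 and in Het alone (*P4ha1* 0.0799, 0.0798 and 0.315, *P4ha2* 0.0554, 0.0502 and 0.223). With the replicate number as a block, *Serpinh1* had an adjusted p of 0.0563, and without the Het day 14 library of replicate 2 one of 0.0566.

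*Crtap* (-0.11, adjusted p = 0.215), *Ppib* (-0.16, 0.156), *Plod1* (-0.18, 0.105) and *Plod2* (0.06, 0.810) did not pass the edgeR test between days 14 and 21. Under each of the other 3 scales 9 of the 10 genes were called lower, with *Plod2* the exception, and TMM called 2347 genes higher and 2013 lower against 2643 and 1177. In WT cultures alone 5 of the 6 were called, without *Plod3* (adjusted p = 0.0858, edgeR), with 2746 of 18631 genes called in all (1041 lower). In Het cultures alone none of the 6 was called, with 69 of 18396 genes called in all (12 lower). At day 14 *P4ha1* had an SD of 1.01 RQ in Het, where replicate 2 had 4.12, and 0.132 in WT, while the SD of *Plod2*, *Plod3* and *Crtap* was smaller in Het. Whether the change from day 14 to 21 differed between genotypes was not tested. Meanwhile the collagen I genes showed 0.22 (*Col1a1*, adjusted p = 0.254) and 0.28 (*Col1a2*, 0.108), the 13 ER partners had 1 gene called higher (*Tmem38b*, an ER cation channel, 0.45) and 5 lower, of which *P3h2* fell by 0.90, *Kdelr2* by 0.28 and *P3h4* by 0.24, and none of the 16 oxygen-regulated genes was called (1 lower under TMM). The minor fibrillar collagen *Col5a3* (0.64) and *Slc23a2* (0.42) were the genes of their lists called higher. Macrophage markers rose between these days, with 6 of 6 genes called higher, and their part in these results was not tested.

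The main question of the design was how Het differs from WT. At days 14 and 21, 2 of the 10 genes were lower in Het, *Plod2* and *Crtap*, none was higher and 8 did not pass, against 16.1% of 19845 genes called (7.27% higher, 8.87% lower). The median log2 difference was -0.08 over the 10 and -0.05 over all genes tested. The background here also depends on the scale, since TMM called 2555 genes higher and 1439 lower, in place of 1443 and 1761. *Plod2* and *Crtap* were called lower under TMM too, by 0.47 and 0.17 (adjusted p = 0.00882 and 0.0385, edgeR).

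*Plod2* had RQ values of 0.376, 0.256, 0.283 and 0.303 in WT replicates 1 to 4 at day 14, and 0.401, 0.281, 0.275 and 0.315 at day 21. Het replicates had 0.198, 0.255, 0.210 and 0.186 at day 14, and 0.337, 0.188, 0.193 and 0.174 at day 21. Of the 8 Het libraries 7 were below every WT library, and the exception was replicate 1 at day 21. In all 8 pairs of the same day and number Het was lower by RQ, and the share of all genes that were is not given here. In replicate 2 at day 14 the RQ values were nearly equal, and by CPM Het was higher there (122 against 119). By CPM that Het library was not below every WT library either. The ratio of mean RQ was 0.700 and the log2 difference -0.52 (SE 0.13, adjusted p = 0.0178, edgeR). Within replicate 1 it was -0.59 and within replicates 2 to 4 -0.51. With replicate 1 left out the adjusted p was 0.000277, and without replicate 2, 3 or 4 it was 0.0803, 0.106 and 0.206, with 330, 260 and 139 genes called in all in place of 3204 (over 35 alternatives, adjusted p of 0.000277 to 0.222 for *Plod2*). At day 14 alone and day 21 alone it was 0.140 and 0.222, where each group holds 4 libraries.

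For *Crtap*, WT cultures of day 14 had 0.708, 0.767, 0.778 and 0.698 RQ, all above the Het values of 0.620, 0.672, 0.688 and 0.640. At day 21 WT had 0.687, 0.746, 0.716 and 0.672 and Het 0.681, 0.579, 0.593 and 0.488, with Het replicate 1 inside the range of WT. By RQ Het was lower in 8 of 8 pairs, and the share of all genes that were is not given here. By CPM the groups overlapped at day 14 (WT 316, 355, 360 and 329, Het 319, 320, 335 and 331). Het was then higher in replicates 1 and 4 at day 14 and lower in the other pairs of both days. The ratio of mean RQ was 0.859, and the log2 difference -0.22 (SE 0.06, adjusted p = 0.0226, edgeR). It was -0.10 in replicate 1 and -0.27 in replicates 2 to 4. On the total count scale *Crtap* had -0.13 (adjusted p = 0.0729), and without replicate 2, 3 or 4 an adjusted p of 0.170, 0.139 and 0.140 (over 35 alternatives 0.00236 to 0.268).

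Differences of the other 8 genes lay between -0.11 and 0.07. *P3h1*, the partner of *Crtap*, had -0.11 (SE 0.06, adjusted p = 0.192), and -0.16 (adjusted p = 0.0470) once the Het day 14 library of replicate 2 was left out. *P4ha1* had -0.11 (SE 0.12, adjusted p = 0.587) and *P4ha2* 0.07 (SE 0.10, adjusted p = 0.716), each with at least 1 Het library above and 1 below all WT libraries. *Ppib* (-0.09), *Serpinh1* (-0.06), *Fkbp10* (-0.07), *Plod1* (0.01) and *Plod3* (0.06) had standard errors of 0.05 to 0.08 and adjusted p-values of 0.435 to 0.934 in edgeR. Under the total count scale *Serpinh1* and *Fkbp10* turned to 0.02 and 0.03.

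**Figure D3:**
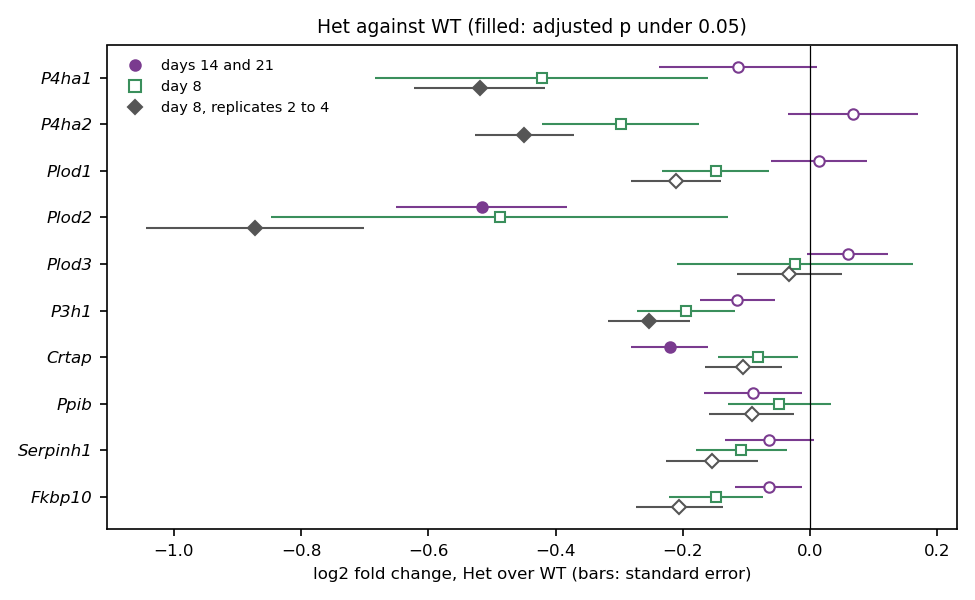
Log2 fold change of Het over WT for the 10 genes at days 14 and 21 (circles), at day 8 (squares) and at day 8 in replicates 2 to 4 (diamonds). Bars are 1 standard error and filled points have an adjusted p under 0.05; *Plod2* (-0.52) and *Crtap* (-0.22) are filled at days 14 and 21, none is filled at day 8 with 4 replicates, and *P4ha1*, *P4ha2*, *Plod2* and *P3h1* are filled with replicate 1 left out.

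The balance between the lysyl hydroxylases differed between genotypes at days 14 and 21, where *Plod2* was called and *Plod1* and *Plod3* were not. The groups overlapped, with Het replicate 1 at day 21 (-1.49) inside the WT range of -1.87 to -1.16. The log2 ratio of *Plod2* to *Plod1* plus *Plod3*, per kb, was -2.13 ± 0.271 (SD, n = 8) in Het and -1.56 ± 0.226 in WT, a difference of -0.57 (exact permutation test, two-sided, p = 0.00124, adjusted over 4 balances 0.00497). *P4ha1* over *P4ha2* was 2.09 ± 0.178 in Het and 2.28 ± 0.0828 in WT, a difference of -0.20 (exact permutation test, p = 0.00730, adjusted 0.0146), although neither subunit was called alone. *Serpinh1* over collagen I was higher in Het by 0.31 on the log2 scale, with p = 0.0990 and adjusted p = 0.132 in the exact permutation test. Paired by replicate number, that balance had an adjusted p of 0.0417, and permuted within days 0.0370. *P3h1* over *Crtap* had 0.10 with an adjusted p of 0.204 in the exact test, and 0.0490 permuted within days. At day 8 the log2 ratio of *Plod2* to *Plod1* plus *Plod3* was -1.15, -2.16, -2.47 and -1.74 in Het replicates 1 to 4. WT replicates had -1.29, -1.22, -1.33 and -1.30, so Het was higher in replicate 1 and lower in the others.

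**Figure D4:**
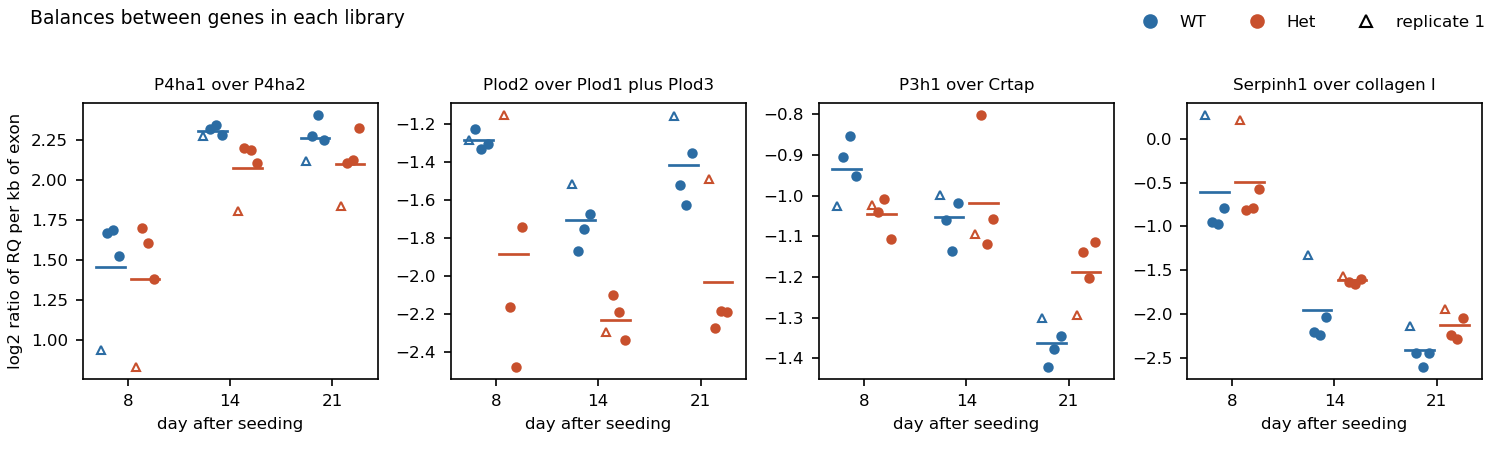
Log2 ratios per kb of exon between members, or between *Serpinh1* and collagen I, in each of the 24 libraries by day and genotype. Points are libraries, triangles are replicate 1 and lines are group means; *P4ha1* over *P4ha2* is higher at days 14 and 21 than in all libraries at day 8, and *Plod2* over *Plod1* plus *Plod3* averages -2.13 in Het and -1.56 in WT at days 14 and 21.

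Het and WT cultures differed in the RNA of some markers of other cells and of the substrate at the same days. Macrophage markers were higher in Het for 5 of 6 genes, with sums of 1256 to 7503 CPM against 517 to 2554 in WT. OB markers were lower in Het for 5 of 8 genes, with sums of 49353 to 72016 (median 58870) against 45116 to 84208 (median 81082). Chondrocyte markers summed to 555 to 10884 in Het and 1497 to 8738 in WT, with 1 of 4 genes called lower. Of the fibroblast markers 1 of 2 tested was called higher in Het (sums of 1.46 to 15.2 against 2.76 to 5.40 CPM), and of the smooth muscle markers 1 of 3 (1503 to 2230 against 1345 to 2153). In each genotype at these days replicate 1 had the highest chondrocyte sum of the 4 libraries. Its *Plod2* was the highest of the 4 in WT (0.376 RQ at day 14 and 0.401 at day 21) and in Het at day 21 (0.337). The exception was the Het day 14 library of replicate 1, with the highest chondrocyte sum of the later libraries, 10884, and a *Plod2* of 0.198. The part of other cells in the lower *Plod2* and *Crtap* was not tested. *Col1a1* was lower by 0.39 (SE 0.12, adjusted p = 0.0442) and *Col1a2* by 0.41 (SE 0.12, adjusted p = 0.0268, edgeR). Of the 9 fibrillar collagen genes 4 were lower in Het and none higher, with *Col11a1* (-0.67, SE 0.16) and *Col11a2* (-0.87, SE 0.16) the others.

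The wider list of 13 ER partners had 7 genes lower in Het and 0 higher at days 14 and 21, with a median of -0.23. *Fkbp14* (-0.36, SE 0.08), an ER isomerase whose loss causes a connective tissue disease, *Fkbp9* (-0.31), the 3-hydroxylase *P3h2* (-0.30), *P4ha3* (-0.27), *P3h4* (-0.25), a partner of lysyl hydroxylase 1 without hydroxylase activity of its own, *P3h3* (-0.23) and the KDEL receptor *Kdelr2* (-0.21) were the 7. Under TMM 4 were lower, on the total count scale 2, and without replicate 2, 3 or 4 none. In the cofactor list *Slc23a2* (-0.38, SE 0.10), which carries ascorbate into cells, and *Slc39a13* (-0.23, SE 0.06) were lower. None of the 16 oxygen-regulated genes was called between genotypes, and their median was -0.02 (0.02 under TMM).

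At day 8, none of the 18191 genes tested was called between Het and WT (0%), with 1815 at an unadjusted p under 0.05 in edgeR and 431 called by DESeq2's Wald test, so no member was called either. All 10 differences were below 0 on the housekeeping scale, where the median of all genes was -0.07, and *Ppib* and *Plod3* were above that median and at 0.02 and 0.04 under TMM. They ran from -0.49 (*Plod2*, SE 0.36, adjusted p = 0.722) to -0.02 (*Plod3*, SE 0.19). Replicate 1 stood apart for some of them. For *Plod2* WT had 0.499, 0.399, 0.353 and 0.389 RQ and Het 0.548, 0.179, 0.162 and 0.282, so that Het was above all WT libraries in replicate 1 and below all of them in replicates 2 to 4. For *P4ha2* the WT values were 0.273, 0.383, 0.384 and 0.339, and those of Het 0.312, 0.246, 0.288 and 0.276, higher than WT in replicate 1 and lower in the other 3.

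Without replicate 1, 3429 of 18342 genes were called at day 8, and 4 of the 10 were lower in Het: *Plod2* (-0.87, SE 0.17, adjusted p = 0.00819), *P4ha1* (-0.52, SE 0.10, adjusted p = 0.00850), *P4ha2* (-0.45, SE 0.08, adjusted p = 0.00423) and *P3h1* (-0.25, SE 0.06, adjusted p = 0.0239, all in edgeR). Of all genes tested 14.1% were called lower in these libraries. In the same 3 against 3 libraries the Het RQ values of 7 of the 10 genes lay below all WT values, as they did for 31.1% of all genes tested. These were the 4 above and *Crtap*, *Fkbp10* and *Plod1*. By CPM only the 4 above stayed below all WT values, and *Crtap*, *Fkbp10* and *Plod1* overlapped. *Crtap* then had 250, 264 and 262 in Het and 257, 252 and 254 in WT. The housekeeping genes had a geometric mean of 609 to 629 CPM in these Het libraries and 552 to 576 in WT. The same libraries had chondrocyte sums of 3323 to 9861 CPM in Het and 10623 to 13601 in WT, and macrophage sums of 384 to 524 against 116 to 144, and their part was not tested. With the replicate number as a block, 282 genes were called at day 8 and none of the 10, with adjusted p-values of 0.108 (*Plod2*), 0.102 (*P4ha1*) and 0.177 (*P4ha2*).

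The difference between the genotype effect at days 14 and 21 and that at day 8 was called for 0.177% of 20287 genes (0.173% higher, 0.00493% lower) and for none of the 10. It was largest for *P4ha2* (0.37, SE 0.18, adjusted p = 0.903, edgeR), and without replicate 1 that gene had 0.58 with an adjusted p of 0.0407, where 929 genes were called in all. For *Plod2* it was -0.03 (SE 0.35). A difference between the stages in the effect on *Plod2* or *Crtap* was therefore not shown, and these comparisons share no libraries.

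Reads at some of these loci are not theirs alone. *Ppib* (chr9:66060222-66066623, plus strand, mm10) shares 25.0% of its exon bases with *Snx22* on the other strand, and *Snx22* had 66.1% of the counts of *Ppib* and was the gene most like it over the 24 libraries, with a root mean square (RMS) difference of 0.03 in centred log2 RQ. Whether strand was used in counting is not given in the sources used here, so reads of *Ppib* and *Snx22* cannot be told apart. *Plod3* (chr5:136987019-136996648, plus) holds the microRNA gene *Mir702* on its own strand, which was given 19852 counts, 7.34% of those of *Plod3*. It also overlaps *Znhit1* on the other strand, which had 20.3% of the counts of *Plod3*, and 11.9% of the exon bases of *Plod3* are shared in all. *Fkbp10* (chr11:100415697-100424824, plus) shares 6.58% with *Nt5c3b* on the other strand, which had 21.8% of the counts of *Fkbp10*. *Plod2* (chr9:92542223-92608428, plus) shares 6.42% with the provisional gene *Gm38391*, which had 6.08% of the counts of *Plod2*. *P4ha1* (chr10:59323296-59373304, plus), *P4ha2* (chr11:54100095-54131665, plus), *Plod1* (chr4:147909753-147936767, minus), *P3h1* (chr4:119232915-119248975, plus), *Crtap* (chr9:114375134-114390675, minus) and *Serpinh1* (chr7:99345376-99353239, minus) share no exon base with another gene.

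Among the 10, *P3h1* and *Fkbp10* ran closest over the 24 libraries, with an RMS difference of 0.07 in centred log2 RQ, and *Serpinh1* was 0.09 from *P3h1*. *P4ha1* (0.43 from *P4ha2*), *Plod2* (0.41 from *Plod3*) and *Plod3* (0.39 from *Ppib*) stood farthest from their nearest member. Outside the set, among 14890 genes that averaged 50 counts or more, the most like were *Ssr2*, a subunit of the ER translocon, for *P3h1* (0.09), *Slc38a10* for *Crtap* (0.08), *Arfip2* for *Serpinh1* (0.09), *Gm44170* for *Fkbp10* (0.07) and *Gm49759* for *Plod1* (0.11). For the others they were *Pdzd2* for *P4ha1* (0.20), the elongation factor *Ell2* for *P4ha2* (0.21), *Slc35g2* for *Plod2* (0.19) and *Dnaaf5* for *Plod3* (0.09). These libraries share genotype, day and batch of cells, so likeness is a description only.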

How the data were processed

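Polyadenylated RNA of 24 cultures (2 genotypes, 3 days, 4 replicates) was sequenced. The authors deposited raw read counts for 55335 genes per library; the submitters' processing notes name cutadapt 2.5, STAR 2.73a, Subread, featureCounts 1.6.4 and mm10, while the rules for strand and for reads shared between genes are not given in the sources used here. No molecular identifiers were used. Each gene's exon length came from the count files. For the 10 members it equalled the merged length of all exons annotated in GENCODE, of any transcript. Ranks and percents per kb depend on that length, which can exceed the length of the RNA expressed.

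RQ, RQ per kb and CPM were computed from the counts. Libraries were scaled to the 4 housekeeping genes the study used, genes were filtered with filterByExpr, and groups were compared with edgeR 4.0.16 (quasi-likelihood test, R 4.3.3), with Benjamini-Hochberg adjustment over all genes tested and a threshold of 0.05. Het was compared with WT at days 14 and 21 with day as covariate, and at day 8 alone. The standard error is the log2 difference over the square root of F. The 4 balances were compared by two-sided exact permutation tests, or 100000 permutations between stages (scipy 1.17.1). The tests were checked on simulated data with independent libraries. These hold no shift between replicates, so the check does not cover the replicate structure of the real libraries.

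Named were the 10 members, genes of the other lists called between genotypes, the 3 largest rises and falls per list during maturation, and the most like gene of each member; *P4hb* between stages and the collagen I genes between days 14 and 21 were added after their values were seen. Members and lists were chosen with earlier results of these data known. Promoters are from RefSeq (GRCm38.p6), which matched 8 members.

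Same-numbered WT and Het libraries deviated together from their group means (r 0.246 to 0.751 in 12 pairs, median -0.09 in 36 pairs of different numbers). Deviations from a group mean sum to 0, so that negative median follows in part from the centring. The numbers were taken to pair samples. A fit with the replicate number as a block stands beside the unpaired main tests where it changes a call. Among replicates 2 to 4 alone the median was 0.0935 (9 pairs), and the labels do not say what a number shares. No replicates agreed within sampling noise (chi-square per degree of freedom at least 5.14). Alternatives were other scales (TMM, DESeq2 1.42.0 size factors, total count), no filter, DESeq2's Wald test, a replicate block, a term for replicate 1 against the others, single days or genotypes, and each replicate or library left out.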

Additional observations from a re-analysis of the deposited data

Results flagged for a closer look

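In 4 of 60 groups of 4 libraries, 1 value of a member stood apart by the size of its gap to the others relative to the range of the group, and chance flags about 1 group in 20. Of these, 3 were in replicate 1. *Ppib* at day 21 had 1.25 RQ in WT replicate 1, against 0.995 to 1.02 in the others, and 1.22 in Het replicate 1, against 0.887 to 0.935. *Plod2* in Het at day 21 had 0.337 RQ in replicate 1 and 0.174 to 0.193 in the others. *Fkbp10* in WT at day 14 had 1.76 RQ in replicate 2 and 1.69 to 1.70 in the others.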

How the results depend on the processing

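Counts of genes called moved with the libraries. Between genotypes at days 14 and 21 (3204), they were 139 to 7573 with libraries left out, 34 at day 14 alone, 367 at day 21 alone, 1303 without day as covariate and 5058 with a term for replicate 1. At day 8 (0) they were 431 by DESeq2, 700 with that term and 0 to 3429 with libraries left out, the highest without replicate 1. For the difference of the effects (36) they were 91 by DESeq2, 71 with that term and 0 to 929. Het alone gave 7634 genes between stages (11877) and 69 between days 14 and 21 (3820), where leaving out libraries gave 1696 to 5568.

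With the replicate number as a block, 4677 genes were called at days 14 and 21, 282 at day 8, 66 for the difference, 13065 between stages and 4589 between days 14 and 21, and among the 10 genes the call changed only for *Serpinh1* between days 14 and 21. *Serpinh1* over collagen I (log2 0.31) passed the test under the block and permuted within days, and *P3h1* over *Crtap* (0.10) permuted within days. With a replicate left out, *P4ha1* over *P4ha2* between genotypes was -0.25 to -0.14 and missed the threshold without replicate 2 or 3, and *P3h1* over *Crtap* between stages was -0.19 to -0.13 and missed it without replicate 3.

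Signs turned only for values that were not called in the main test, with the exception of *Ppib* between stages (-0.032 on the total count scale). Between genotypes at days 14 and 21 these were *Serpinh1* (0.024) and *Fkbp10* (0.026) on the total count scale, *Plod1* (-0.0046 at day 21 alone, -0.071 to 0.053 with libraries left out), *Plod3* (-0.0033 at day 14 alone) and *P4ha2* (-0.060 to 0.13). At day 8 they were *Crtap* (0.011, total count), *Ppib* (0.024 with TMM and DESeq2's size factors, 0.040 with the total count) and *Plod3* (0.044 with TMM, 0.043 with size factors, 0.057 with the total count, -0.19 to 0.13 with libraries left out). *Plod2* between days 14 and 21 was -0.091 to 0.14. The cause of these changes was not tested. Of the members' values, 383 of 420 with libraries left out and 388 of 430 under the other alternatives kept their direction and their side of the threshold.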
